A study of Mus musculus with 6 samples.

Results

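The genes described here encode the SR proteins and the hnRNPs (heterogeneous nuclear ribonucleoproteins), the classical families of splicing regulators. They were taken by symbol, as every gene of the count table named Srsf or Hnrnp followed by its family letter or number, which gave 31 of 45527 named genes: 11 Srsf genes and 20 Hnrnp genes. All 31 passed the filter on low counts. RNA was sequenced from muscle satellite cells, stem cells that express Pax7 and rebuild fibres after injury. They were sorted by yellow fluorescent protein (YFP) 24 h after cardiotoxin, a venom toxin that destroys muscle fibres, was injected (30 µl) into the lower hindlimb. The iKO-labelled group (Paxbp1-iKO, 3 libraries) was Pax7creER:Paxbp1flox/flox:R26R-YFP, and the control group (3 libraries) was Pax7creER:Paxbp1flox/+:R26R-YFP, so the controls carried the Pax7-driven inducible Cre, the YFP reporter and 1 floxed allele of Paxbp1 as well. YFP marks cells in which Cre acted on the reporter, and not the loss of Paxbp1 itself. The series asks about the need for Paxbp1 when muscle stem cells re-enter the cell cycle. The age and sex of the mice are not stated in the labels. The labels do not tie a library to an animal either, so each p-value measures only the spread between these libraries.

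SR proteins carry RNA recognition motifs and a tail rich in arginine and serine, and bound to exonic enhancers they recruit the spliceosome. Their tails are phosphorylated by SRPK and CLK kinases, which sets their import into the nucleus and their release from nuclear speckles. hnRNPs coat nascent transcripts and often act against SR proteins by silencing exons, and many of them also serve in mRNA export, stability and translation. Members of both families limit their own amounts by splicing in or out a poison exon or a retained intron, which sends the transcript to decay or keeps it in the nucleus. In muscle, alternative splicing is remodelled as satellite cells activate and differentiate.

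Libraries held between 23327359 and 28050748 counts, and between 20393 and 25433 genes had a count in them. Pairs of libraries within a group correlated at 0.933 to 0.957 over log2 CPM, and pairs across groups at 0.902 to 0.924. Paxbp1 itself went against the knockout label: its counts were 2745, 3162 and 3125 in the iKO-labelled libraries and 1583, 1917 and 1592 in the controls, a log2 fold change of 0.68 ± 0.13 (SE; edgeR quasi-likelihood test, Benjamini-Hochberg adjusted p = 0.00954, 3 libraries per group). These counts cover the whole gene, and the labels do not say which exons the floxed allele loses, so they do not check the deletion. Every direction given here is that of libraries carrying a label which this transcript does not bear out. Of 10 satellite cell markers, 6 rose and 3 fell: Sdc4, a surface proteoglycan of these cells, averaged 6087 ± 214 CPM in iKO-labelled and 3911 ± 251 CPM in control libraries, and Vcam1 averaged 1949.8 ± 66.2 CPM in iKO-labelled and 1446 ± 207 CPM in control libraries (SD, n = 3 each). Myod1, the myogenic determination factor, averaged 1419 ± 68.4 CPM in iKO-labelled and 1706 ± 168 CPM in control libraries and was not called. Pax7 itself averaged 49.5 ± 1.70 CPM in iKO-labelled and 11.3 ± 2.14 CPM in control libraries, a log2 fold change of 2.12 ± 0.17 (edgeR, adjusted p = 0.000222). The 3 that fell, named like Pax7 after their values were seen, were Myf5 (-0.62 ± 0.078), Itga7 (-0.68 ± 0.12) and Des (-0.37 ± 0.11), so the list did not move in 1 direction, and its part in the levels of the splicing regulators was not tested. Of other cell types, no macrophage, neutrophil, fibro-adipogenic, endothelial or lymphocyte marker tested was called different. Of the neutrophil markers 3 of 6 were tested, and of the lymphocyte markers 1 of 5. Standard errors were large for some markers, so the lack of calls does not show that these cells were equal between groups. Lymphocyte markers summed to 1.96 to 4.14 CPM in iKO-labelled libraries and 1.58 to 3.49 CPM in controls, and Cd3g had a count of 0 in every control.

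Of the 31 genes, 3 rose and 7 fell in the iKO-labelled libraries, and the directions split by family: all 3 that rose were SR proteins and all 7 that fell were hnRNPs. Calls were made at a Benjamini-Hochberg adjusted p under 0.05 in the edgeR test over 16252 genes, of which 8.15% were called higher and 12.3% lower. Of all calls, 39.9% were thus higher, and 57.2% were with library totals as scaling, which shifts the median of all genes by 0.13 (log2). The 31 genes are abundant, 27 of them having a mean log2 CPM of at least 5, and among all 5267 genes at that level 11.6% were called higher and 24.9% lower. The share of the 31 that rose (9.68%) and the share that fell (22.6%) are near those backgrounds. Within families, 27.3% of the SR proteins rose and 0 fell, and 35% of the hnRNPs fell and 0 rose. The same backgrounds, 11.6% higher and 24.9% lower, stand beside these shares. The families hold 11 and 20 genes, so a few calls move the shares, and their distance from the backgrounds was not tested. The median log2 fold change was 0.096 over the 11 SR proteins and -0.21 over the 20 hnRNPs. It was 0.023 over all tested genes and -0.098 over the 5267 abundant genes. The median absolute log2 fold change was 0.18 over the 31 genes and 0.46 over all tested genes. At a mean log2 CPM of at least 5 it was 0.18 over the 27 genes and 0.31 over all 5267, and the median log2 fold change was -0.10 over the 27 and -0.098 over the 5267. Tested against a change of 1.5-fold in place of no change, 0 of the 31 genes were called in either direction. Of all 16252 tested genes, 322 were then called higher and 495 lower, so few calls among 31 genes would be usual. For 16 of the 31 genes the iKO-labelled and control values stood apart without overlap, in a table where 39.8% of all tested genes, and 55.2% of those at the higher level, did not overlap. Since bulk RNA was measured, fewer cells of a type and less RNA per cell cannot be told apart.

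Genes of S phase and mitosis moved with the same contrast. Of 18 such genes, 17 fell, and their summed level ranged from 677 to 819 CPM in iKO-labelled libraries and from 2865 to 3704 CPM in controls. The 13 mRNAs of the mitochondrial genome summed to 3898 to 4169 CPM in iKO-labelled libraries and 15555 to 16877 CPM in controls, and 11 of them fell. Smooth muscle and pericyte markers summed to 102 to 118 CPM in iKO-labelled and 219 to 320.3 CPM in control libraries, of which Acta2, smooth muscle actin, held 41.9 ± 7.47 CPM in iKO-labelled and 197 ± 55.0 CPM in control libraries (SD, n = 3 each) and was the single one of 5 called. Myofibre markers summed to 12.5 to 17.2 CPM in iKO-labelled libraries and 16.4 to 64.2 CPM in controls, with 1 of 6 called lower. The part of each of these in the levels of the splicing regulators was not tested.

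**Figure D1:**
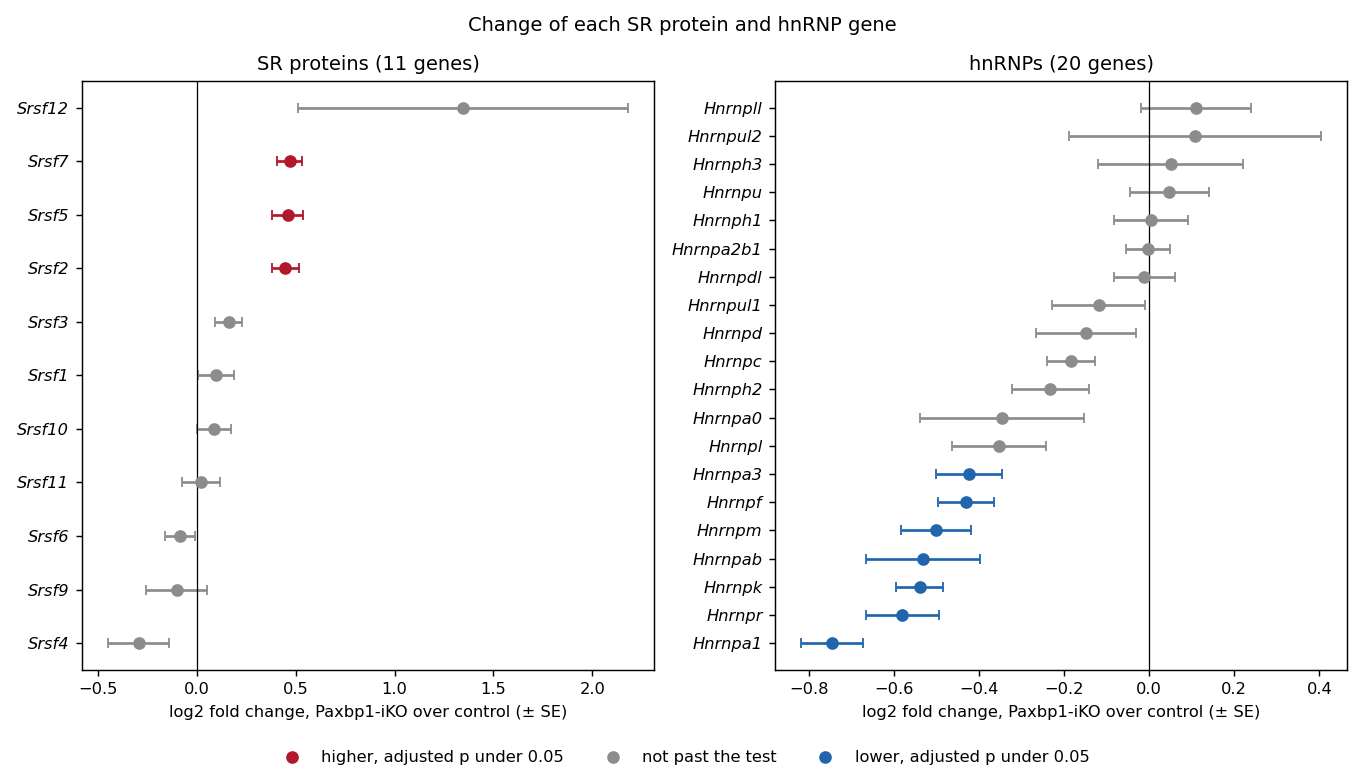
Log2 fold change (iKO-labelled over control, horizontal axis) of the 31 genes with their standard errors (bars), ordered within families, from edgeR. The 3 red points, called higher, are SR proteins, led by Srsf7 at 0.47, and the 7 blue points, called lower, are hnRNPs, led by Hnrnpa1 at -0.75; grey points did not pass the test.

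Among the SR proteins, Srsf7, Srsf2 and Srsf5 rose. Srsf7 (chr17:80200080-80207307, minus strand, GRCm38), which has a zinc knuckle beside its RNA recognition motif and helps export mRNA, had 850.2, 857 and 835 CPM in the iKO-labelled libraries, against 651, 584 and 601 CPM in the controls. Its lowest iKO-labelled library stood well above its highest control. The means were 847 ± 11.3 CPM in iKO-labelled and 612 ± 34.5 CPM in control libraries (SD, n = 3 each), a log2 fold change of 0.47 ± 0.063 (SE; edgeR, Benjamini-Hochberg adjusted p = 0.00196) or 1.39-fold. Srsf2 (chr11:116849901-116853094, minus strand), also called SC35, an enhancer-binding SR protein, had 724, 706 and 745 CPM in the iKO-labelled libraries, against 500.1, 529 and 566 CPM in the controls. All 3 iKO-labelled values again lay above all 3 controls, by a log2 fold change of 0.45 ± 0.068 (edgeR, adjusted p = 0.00326). Srsf5 (chr12:80945504-80950507, plus strand), known as SRp40, had 629, 685 and 722 CPM in the iKO-labelled libraries, against 526, 490.5 and 463 CPM in the controls. These groups did not overlap either, and the log2 fold change was 0.46 ± 0.078 (edgeR, adjusted p = 0.00543).

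The other 8 SR proteins were not called. Srsf3, the smallest SR protein and an export adaptor, averaged 599.7 ± 19.1 CPM in iKO-labelled and 537 ± 34.6 CPM in control libraries (SD, n = 3 each) with a log2 fold change of 0.16 ± 0.070 (edgeR, adjusted p = 0.153), and its groups did not overlap. It passed the threshold with upper-quartile factors (adjusted p = 0.0464), library totals (0.0201) and the stricter filter on counts (0.0338). Srsf4, the long-tailed SRp75, averaged 33.5 ± 0.732 CPM in iKO-labelled and 41.1 ± 7.15 CPM in control libraries with a log2 fold change of -0.30 ± 0.15 (adjusted p = 0.235), and its groups did not overlap. The founding member Srsf1 (ASF/SF2) had a log2 fold change of 0.10 ± 0.090, its relative Srsf9 of -0.10 ± 0.15, and Srsf6 of -0.084 ± 0.075. For Srsf10, which represses splicing when dephosphorylated, the log2 fold change was 0.088 ± 0.086, and for Srsf11 it was 0.020 ± 0.10. Groups overlapped for each of these 5. Srsf12, a little expressed member, had 25, 54 and 103 counts in iKO-labelled libraries and 5, 35 and 29 counts in controls, groups that overlapped, with a log2 fold change of 1.35 ± 0.83 (edgeR, adjusted p = 0.319).

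Among the 7 hnRNPs that fell, Hnrnpa1 had the largest fold change. Hnrnpa1 (chr15:103240432-103246692, plus strand), which shuttles between nucleus and cytoplasm and silences exons by binding UAG-containing motifs, had 544, 504 and 475 CPM in the iKO-labelled libraries, against 808, 868 and 878 CPM in the controls. The highest iKO-labelled value lay far below the lowest control. Means of 508 ± 34.4 CPM in iKO-labelled and 851 ± 37.9 CPM in control libraries (SD, n = 3 each) gave a log2 fold change of -0.75 ± 0.072 (edgeR, adjusted p = 0.000488), or 0.597-fold of the control level. Its relative Hnrnpa3 (chr2:75659261-75669407, plus strand) had 107, 109.8 and 111 CPM in the iKO-labelled libraries, against 144, 148 and 146 CPM in the controls. This was a smaller but tight difference, with a log2 fold change of -0.42 ± 0.078 (adjusted p = 0.00757). Another gene of this branch, Hnrnpa2b1 (chr6:51460932-51469894, minus strand), which sorts RNAs in the cytoplasm and binds similar motifs, had 1366, 1355 and 1330.3 CPM in the iKO-labelled libraries, against 1393, 1338 and 1325 CPM in the controls. Those groups overlapped throughout, and the log2 fold change was -0.0021 ± 0.052 (edgeR, adjusted p = 0.983), too small for its sign to hold under other scalings.

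Hnrnpk (chr13:58391142-58403343, minus strand), a poly(C)-binding protein built on KH domains and the most abundant hnRNP by counts in controls, had 1384, 1346 and 1310.2 CPM in the iKO-labelled libraries, against 1936, 2044 and 1890.3 CPM in the controls. Every iKO-labelled library was below every control, and the log2 fold change was -0.54 ± 0.055 (edgeR, adjusted p = 0.000572). Hnrnpf (chr6:117900324-117925622, plus strand), which binds runs of G, had 551, 525 and 494 CPM in the iKO-labelled libraries, against 729, 679.6 and 706 CPM in the controls. It fell without overlap, with a log2 fold change of -0.43 ± 0.067 (adjusted p = 0.00366). Its close relatives were not called: the log2 fold change was 0.0046 ± 0.087 for Hnrnph1, -0.23 ± 0.091 for Hnrnph2, whose groups did not overlap, and 0.050 ± 0.17 for Hnrnph3.

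Hnrnpr (chr4:136310942-136359447, plus strand), a relative of the translation regulator Syncrip, had 118, 137 and 129 CPM in the iKO-labelled libraries, against 197, 192 and 186 CPM in the controls. The groups stood apart, with a log2 fold change of -0.58 ± 0.086 (edgeR, adjusted p = 0.00289). Hnrnpm (chr17:33646233-33686860, minus strand), which binds GU-rich RNA and regulates exon skipping, had 256, 279 and 253 CPM in the iKO-labelled libraries, against 346, 365 and 403 CPM in the controls. Here too all iKO-labelled values were lower, with a log2 fold change of -0.50 ± 0.083 (adjusted p = 0.00483). Hnrnpab (chr11:51600100-51606847, minus strand), a relative of the AU-rich element binder Hnrnpd, had 250.3, 215 and 230.3 CPM in the iKO-labelled libraries, against 267, 359.7 and 379.6 CPM in the controls. Its groups did not overlap, but control replicate 1 lay close to the iKO-labelled values, and the log2 fold change was -0.53 ± 0.13 (edgeR, adjusted p = 0.0266). Its call is the least firm of the 10: leaving out iKO-labelled replicate 2 ended it (adjusted p = 0.102), as did leaving out iKO-labelled replicate 3 (0.0898), control replicate 2 (0.0881) or control replicate 3 (0.0944). It also ended with library totals as scaling (adjusted p = 0.0705) and on unfiltered FPKM values (0.115). The other 9 calls held when any 1 library was left out.

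**Figure D2:**
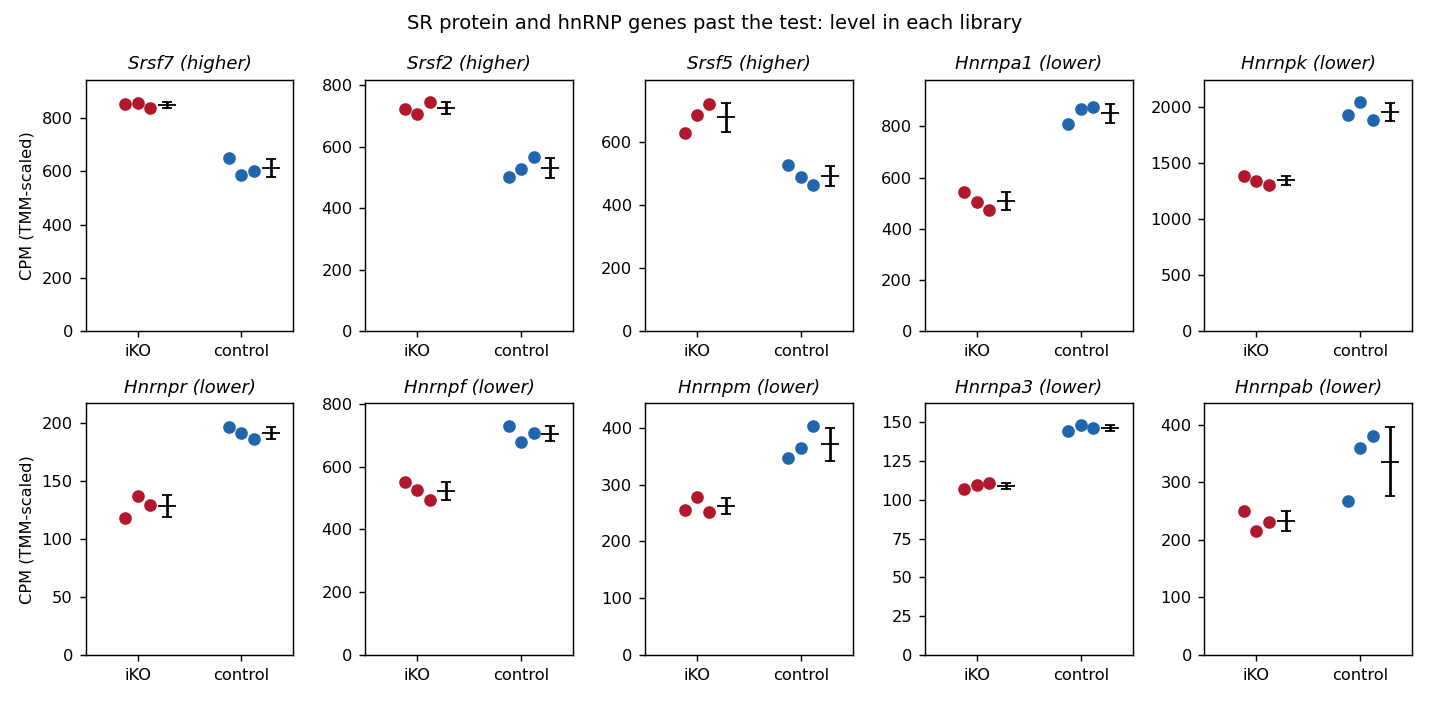
CPM (vertical axes, from 0) of the 10 called genes in each library, iKO-labelled libraries on the left and controls on the right of each panel, with the mean and SD. No panel shows overlapping groups, and control replicate 1 of Hnrnpab (267 CPM) comes nearest to the iKO-labelled values (215 to 250.3 CPM).

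The remaining hnRNPs were not called. Hnrnpc, which binds U tracts and packages nascent transcripts, had 706, 691 and 726 CPM in the iKO-labelled libraries, against 797, 799 and 815 CPM in the controls. Its groups did not overlap, and its log2 fold change of -0.18 ± 0.055 just missed the threshold (edgeR, adjusted p = 0.0513); it passed with limma-voom (adjusted p = 0.0254) and without the mitochondrial and the 50 most abundant genes (0.0458). Hnrnpl, which binds CA repeats, averaged 115 ± 9.50 CPM in iKO-labelled and 146 ± 15.8 CPM in control libraries (SD, n = 3 each), a log2 fold change of -0.35 ± 0.11 (edgeR, adjusted p = 0.0586) in groups that did not overlap, and it passed with DESeq2 (adjusted p = 0.0347) and limma-voom (0.0448). Log2 fold changes were -0.35 ± 0.19 for Hnrnpa0, -0.15 ± 0.12 for Hnrnpd, which promotes the decay of AU-rich mRNAs, and -0.012 ± 0.072 for Hnrnpdl. For the scaffold attachment factor Hnrnpu the value was 0.047 ± 0.093, with -0.12 ± 0.11 for Hnrnpul1 and 0.11 ± 0.30 for Hnrnpul2. Hnrnpll, known for its part in CD45 splicing in T cells, had a log2 fold change of 0.11 ± 0.13. Of this group, Hnrnpul1 had groups that did not overlap.

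Levels were compared between genes on the deposited FPKM scale, which accounts for gene length. The mean FPKM of Srsf7 was 367 in iKO-labelled libraries, rank 1 among the 31 genes, and 262 in controls, rank 5. Hnrnpa2b1 had rank 2 in iKO-labelled libraries (326 FPKM) and rank 3 in controls (323 FPKM). Hnrnpa1 had rank 3 in iKO-labelled libraries (261 FPKM) and rank 1 in controls (433 FPKM). In both groups Hnrnpc had rank 4, with 243 FPKM in iKO-labelled and 273 FPKM in control libraries. Hnrnpk averaged 236 ± 6.72 FPKM in iKO-labelled and 339 ± 14.5 FPKM in control libraries (SD, n = 3 each), rank 6 in iKO-labelled libraries and rank 2 in controls. The same 5 genes did not lead in both groups: Srsf2 had rank 5 in iKO-labelled libraries and rank 7 in controls. At the bottom, Srsf12 was the lowest of the 31 and Hnrnpul2 next to it in both groups. Neighbouring ranks were often within their spread: in iKO-labelled libraries Srsf2 averaged 242 ± 6.58 FPKM and Hnrnpk 236 ± 6.72 FPKM.

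**Figure D3:**
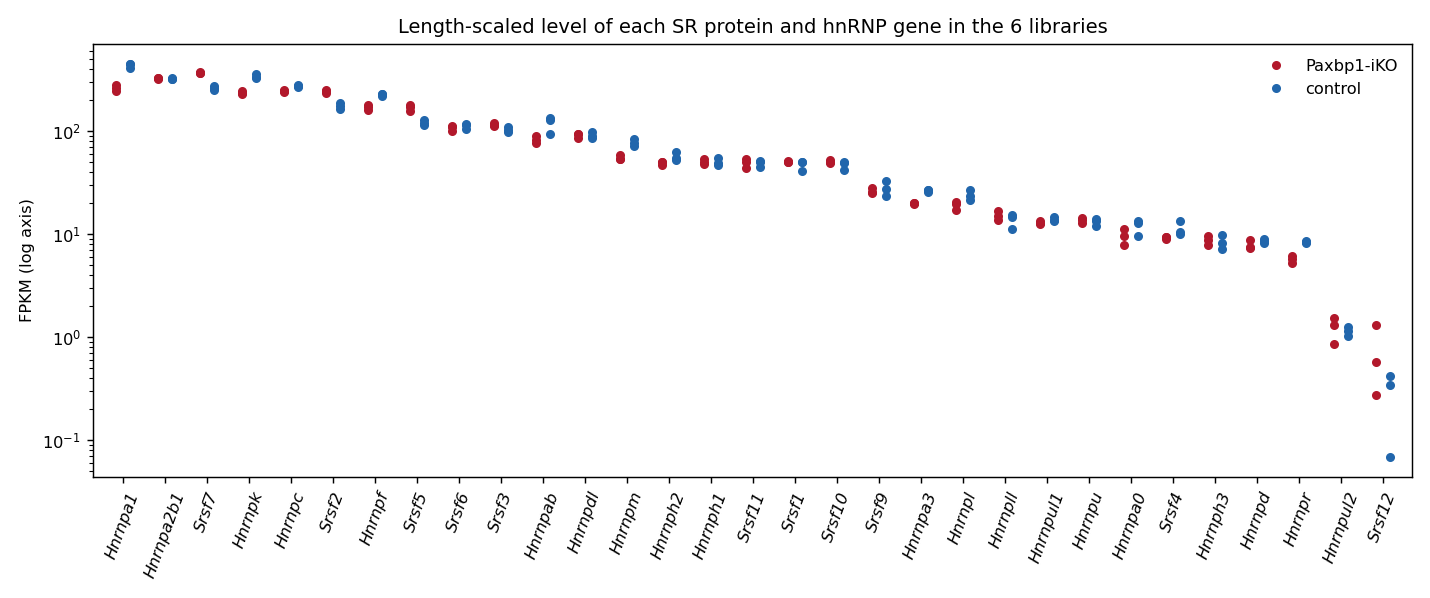
FPKM (log axis) of the 31 genes, ordered by their mean over all libraries, with 1 point for each iKO-labelled (red) and control (blue) library. Srsf7 has the highest mean in iKO-labelled libraries (367 FPKM) and Hnrnpa1 in controls (433 FPKM), and Srsf12 is lowest in both.

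The summed level of the SR proteins was higher and that of the hnRNPs lower in the iKO-labelled libraries. These sums include the called genes and restate their changes, so they are not separate from those calls. Srsf7 averaged 847 CPM in iKO-labelled and 612 CPM in control libraries, and Hnrnpk 1347 CPM in iKO-labelled and 1957 CPM in control libraries. Of the SR proteins 8 were not called, and of the hnRNPs 13. The 11 SR proteins summed to 4521 ± 76.7 CPM in iKO-labelled libraries and 3838 ± 129 CPM in controls (SD, n = 3 each). The 20 hnRNPs summed to 6710.4 ± 83.5 CPM in iKO-labelled libraries and 8327 ± 88.5 CPM in controls. Both families together held 1.17% of all counts in iKO-labelled libraries and 1.16% in controls, and 11231 ± 18.4 CPM in iKO-labelled against 12165 ± 66.3 CPM in control libraries. The ratio of summed SR to summed hnRNP counts within a library, which does not depend on scaling, was 0.653, 0.675 and 0.693 in iKO-labelled libraries, against 0.483, 0.443 and 0.457 in controls. The groups did not overlap, and no test is given because the genes were chosen with earlier results known.

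**Figure D4:**
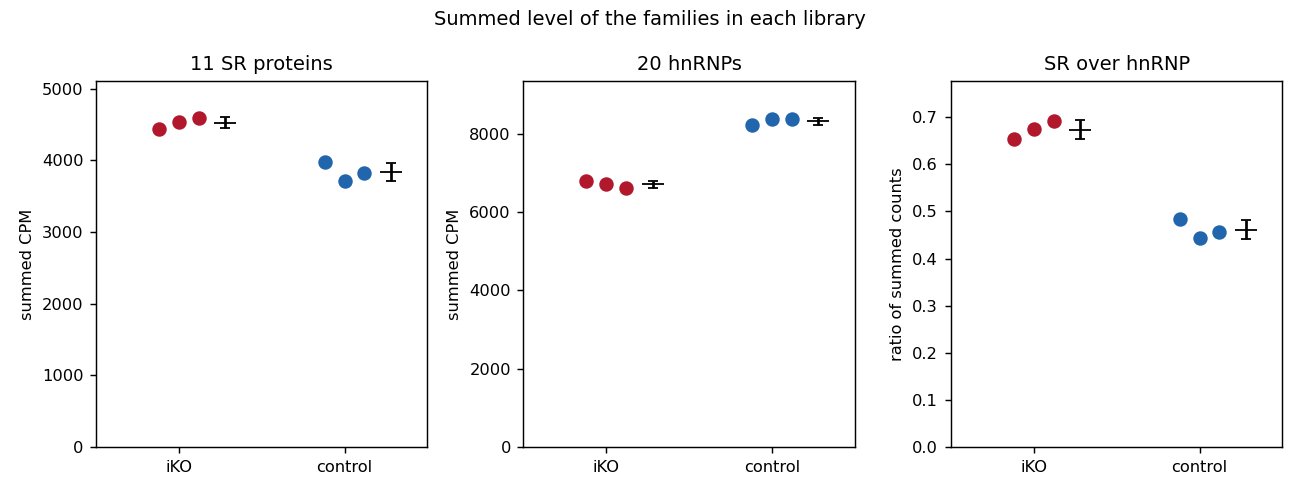
Summed CPM of the 11 SR proteins (left), of the 20 hnRNPs (middle) and the ratio of their summed counts (right) in each library, with mean and SD; axes start at 0. SR sums are higher and hnRNP sums lower in the iKO-labelled libraries, and the ratio lies at 0.653 to 0.693 there and at 0.443 to 0.483 in controls.

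Close relatives were compared within each library. Of 465 pairs of the encoded proteins, 22 shared over 40% of residues in a global alignment, and for each of them the ratio of counts within a library was taken. The ratio of Hnrnpa1 to Hnrnpa2b1, which are 63.0% identical, was 0.398, 0.372 and 0.357 in iKO-labelled libraries and 0.580, 0.648 and 0.663 in controls, a log2 difference of -0.74. Hnrnpf to Hnrnph1 (67.7% identical) stood at 1.94, 1.76 and 1.55 in iKO-labelled libraries and 2.22, 2.44 and 2.42 in controls, a log2 difference of -0.44. Both ratios separated the groups without overlap. Srsf5 to Srsf6 (52.5% identical) was at 1.15, 1.39 and 1.36 in iKO-labelled libraries and 0.900, 0.950 and 0.820 in controls, a log2 difference of 0.54. Srsf3 to Srsf7 (41.1% identical) was at 0.700, 0.724 and 0.699 in iKO-labelled libraries and 0.882, 0.864 and 0.884 in controls, a log2 difference of -0.31. By contrast the ratio of Srsf2 to Srsf7 (42.7% identical), which both rose, had a log2 difference of -0.023, and its groups overlapped. The closest pair, Hnrnph1 and Hnrnph2 (89.0% identical), gave 1.28, 1.45 and 1.44 in iKO-labelled libraries and 1.16, 1.19 and 1.19 in controls. A ratio restates the changes of the genes in it, so the ratios are not separate from the calls given above. The 22 pairs share genes, Hnrnpf being in several of them, and no background over ratios of other gene pairs was taken. In all, 13 of 22 ratios did not overlap between groups, beside 55.2% of single abundant genes, which is a different measure. Each of the 13 reached p = 0.1 in a 2-sided exact permutation test (0.169 after Benjamini-Hochberg adjustment over the 22 pairs), the smallest that 3 against 3 libraries allow, so this test could not pass 0.05 for any ratio. The log2 difference of Srsf3 to Srsf7 stood beside SDs of 0.029 in iKO-labelled and 0.018 in control libraries, and that of Hnrnpa1 to Hnrnpa2b1 beside SDs of 0.079 in iKO-labelled and 0.10 in control libraries.

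The gene models bear on what these counts can show. In GENCODE M21, 9 of 11 SR genes and 10 of 20 hnRNP genes have a transcript classed as a target of nonsense-mediated decay, together 61.3% of the 31, against 27.8% of 13391 tested protein-coding genes. All 3 genes that rose and 3 of the 7 that fell have one. A transcript with a retained intron is annotated for 22 of the 31 (71.0%) and for 57.6% of the tested protein-coding genes. Counts per gene add all transcripts up, so a shift between coding and decaying forms of a gene cannot be read from them.

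Near-identical copies and overlapping genes touch several values. Pseudogenes with at least 90% identity over at least 50% of the coding sequence held counts equal to 8.55% to 9.39% of those of Hnrnpa1 in iKO-labelled libraries and 9.31% to 9.83% in controls, from 12 copies with a row in the count table. Hnrnpk has 2 such copies, and the 1 with a row in the count table held 9.20% to 9.55% in iKO-labelled libraries and 9.88% to 10.2% in controls. For Hnrnpc, 1 copy held 2.09% to 2.36% in iKO-labelled libraries and 3.95% to 4.11% in controls. When copies were added to their parent, a choice made after seeing the data, the same 10 genes were called and Hnrnpc joined them (adjusted p = 0.0321). The libraries do not mark strand, and Hnrnpab shares 29.1% of its exon bases with Phykpl on the opposite strand. Srsf2 shares 15.6% with Mettl23 and 9.7% with Mfsd11, both on the opposite strand, and Hnrnpm shares 14.7% with March2 on its own strand. Srsf4 shares 43.0% with the noncoding Gm12992 on the opposite strand, which had 132 counts over all libraries against 5785 for Srsf4. Reads in those stretches cannot be assigned to one gene with certainty.

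The promoters of these genes were read from RefSeq (GRCm38.p6), 250 bases before to 50 after the annotated start, for the 29 of 31 genes that the table held. They are rich in G and C, with a median of 68.3% against 60.7% over promoters of tested genes. The promoters of the 2 genes of each direction with the smallest adjusted p are shown, 5′ to 3′ along the gene, so that the motif matches can be seen in place. Capitals mark matches, on either strand, to 3 motifs. The GC box was searched as GGGCGG. The box bound by the factor NF-Y was searched under the letters CCAAT that give it its name. Sites of the ETS family were searched as CCGGAAG. In the order printed, the windows lie at chr17:80207256-80207555 on the minus strand, chr11:116853045-116853344 on the minus strand, chr15:103240147-103240446 on the plus strand and chr13:58402068-58402367 on the minus strand.
Srsf7: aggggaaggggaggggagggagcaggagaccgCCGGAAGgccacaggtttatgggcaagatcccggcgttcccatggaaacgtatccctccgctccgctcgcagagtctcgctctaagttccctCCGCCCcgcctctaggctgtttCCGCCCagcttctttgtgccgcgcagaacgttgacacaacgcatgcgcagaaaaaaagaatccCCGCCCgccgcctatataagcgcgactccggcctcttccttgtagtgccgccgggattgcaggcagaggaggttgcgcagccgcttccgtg
Srsf2: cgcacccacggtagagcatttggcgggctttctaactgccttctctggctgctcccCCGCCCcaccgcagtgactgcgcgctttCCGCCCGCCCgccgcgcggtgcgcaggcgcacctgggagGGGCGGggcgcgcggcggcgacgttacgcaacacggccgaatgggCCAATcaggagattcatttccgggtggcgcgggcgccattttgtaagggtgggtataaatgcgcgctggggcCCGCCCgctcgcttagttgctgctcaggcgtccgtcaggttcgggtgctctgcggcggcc
Hnrnpa1: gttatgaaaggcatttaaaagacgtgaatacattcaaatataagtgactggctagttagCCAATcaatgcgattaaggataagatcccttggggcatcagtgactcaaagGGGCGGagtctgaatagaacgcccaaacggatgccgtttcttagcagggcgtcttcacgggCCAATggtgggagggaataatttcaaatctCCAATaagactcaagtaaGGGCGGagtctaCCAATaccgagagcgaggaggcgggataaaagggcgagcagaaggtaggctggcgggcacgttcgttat
Hnrnpk: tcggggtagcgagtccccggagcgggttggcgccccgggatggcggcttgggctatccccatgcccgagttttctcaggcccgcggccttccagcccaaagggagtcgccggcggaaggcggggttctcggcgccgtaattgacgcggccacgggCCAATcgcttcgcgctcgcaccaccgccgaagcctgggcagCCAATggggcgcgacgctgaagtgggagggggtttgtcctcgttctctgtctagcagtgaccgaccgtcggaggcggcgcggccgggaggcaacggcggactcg

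Srsf7 has 3 GC boxes and an ETS match and no CCAAT box, while Hnrnpk has a pair of CCAAT boxes and no GC box in this window. The RefSeq window of Hnrnpk lies inside the GENCODE span of the gene given above, so these annotations place its start differently. Hnrnpa1 has 4 CCAAT boxes and 2 GC boxes, and at 48.3% it has the lowest share of G and C of the 29. Across the called genes, a CCAAT box was found in 5 of the 7 that fell and in 1 of the 3 that rose, in 16 of all 29 promoters, and in 38.0% of 10999 promoters of tested genes. A GC box was found in 3 of 3 that rose, 4 of 7 that fell and 23 of 29 in all, against 63.1% of promoters of tested genes. ETS matches, which can share bases with a GC box as they do in Srsf5, were found in 2 of 3 that rose, 1 of 7 that fell and 6 of 29 in all, against 17.2%. An E-box (CACGTG) was found in 2 of 7 that fell and 4 of 29 in all, against 10%. No promoter of the 29 held TTTCGCGC or TTTGGCGC (E2F), TGACGTCA (CRE), AAGATGGCG (YY1) or the NRF1 motif, which 0.582%, 0.955%, 3.15%, 3.05% and 1.92% of promoters of tested genes held. A match is a stretch of letters and not a measured binding site.

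Genes that act on or with these families were followed in 5 lists. Of 16 kinases, phosphatases and importers of SR proteins, 3 rose and 3 fell (18.8% each), with a median log2 fold change of 0.11. The shares over all tested genes were 8.15% higher and 12.3% lower, and among abundant genes 11.6% and 24.9%. Most of this list is abundant, so its share lower is below that of genes at that level. Clk1, which phosphorylates SR proteins in the nucleus, averaged 408 ± 21.8 CPM in iKO-labelled and 248 ± 17.5 CPM in control libraries (SD, n = 3 each), a log2 fold change of 0.72 ± 0.081 (edgeR, adjusted p = 0.000862). Srpk1, which phosphorylates them in the cytoplasm, averaged 123 ± 19.0 CPM in iKO-labelled and 213 ± 16.4 CPM in control libraries, a log2 fold change of -0.79 ± 0.13 (adjusted p = 0.00405). These kinases of the same substrates differed in opposite directions. Tnpo3, which carries phosphorylated SR proteins into the nucleus, fell, with a log2 fold change of -0.53 ± 0.10 (adjusted p = 0.00728), as did Ppp1cb, a catalytic subunit of protein phosphatase 1, with -0.61 ± 0.081 (0.00181). The other 2 that rose were Clk2 (0.93 ± 0.23) and Clk4 (0.49 ± 0.11), which are named because the count is small, after their values were seen. The list's count of 6 called genes was 4 without iKO-labelled replicate 2, without iKO-labelled replicate 3 or without control replicate 3.

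Of 31 SR-related proteins, 7 rose (22.6%) and 4 fell (12.9%), and the median log2 fold change over the list was 0.069. Beside these shares stand 8.15% higher and 12.3% lower over all tested genes, and 11.6% and 24.9% among abundant genes. Most of the list is abundant, so its share lower is below that of genes at its level. Rsrp1, an arginine- and serine-rich protein, averaged 552 ± 31.9 CPM in iKO-labelled and 207 ± 23.4 CPM in control libraries (SD, n = 3 each), a log2 fold change of 1.42 ± 0.10 (edgeR, adjusted p = 0.000135). Zranb2 (1.25 ± 0.10, adjusted p = 0.000213) and Luc7l3, a U1-associated factor (0.79 ± 0.082, 0.000595), rose too. The U1 component Snrnp70 fell, with -0.68 ± 0.077 (adjusted p = 0.000873). This list's count of 11 called genes depended on single libraries: it was 7 without iKO-labelled replicate 2, without iKO-labelled replicate 3 or without control replicate 3. It was 12 without control replicate 1. Calls over all genes dropped as well: from 1324 higher and 1991 lower to 706 and 1347 without iKO-labelled replicate 2.

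Of 27 other hnRNP-like and related RNA-binding proteins, 17 fell (63%) and 0 rose, and their median log2 fold change was -0.39. Against the background of 24.9% among abundant genes this was the highest share lower of the 5 lists. The count of 17 called genes was 12 without iKO-labelled replicate 2, without control replicate 2 or with library totals as scaling. It was 13 without iKO-labelled replicate 3 or control replicate 3, and 14 without iKO-labelled replicate 1. Ptbp3, a polypyrimidine tract-binding protein, averaged 82.8 ± 9.19 CPM in iKO-labelled and 165 ± 16.4 CPM in control libraries (SD, n = 3 each) and fell by 1.0 ± 0.12 on the log2 scale (edgeR, adjusted p = 0.00107). Pcbp4, a poly(C)-binding protein, fell by 0.89 ± 0.12 (adjusted p = 0.00185), and Elavl1, which stabilises AU-rich mRNAs, by 0.59 ± 0.081 (0.00216).

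Of 24 splicing regulators of muscle and other tissues, 20 were tested, 6 rose (30%) and 2 fell (10%), while the median log2 fold change was negative, -0.15. Over all tested genes 8.15% were called higher and 12.3% lower, against 11.6% and 24.9% among abundant genes. Rbm5 averaged 221 ± 11.2 CPM in iKO-labelled and 113 ± 11.2 CPM in control libraries (SD, n = 3 each), a log2 fold change of 0.97 ± 0.10 (edgeR, adjusted p = 0.000539). Rbm39, an abundant splicing cofactor, averaged 986 ± 64.9 CPM in iKO-labelled and 763 ± 35.9 CPM in control libraries, a log2 fold change of 0.37 ± 0.070 (adjusted p = 0.00871). Celf4 (1.28 ± 0.26, 0.0108) lost its call without iKO-labelled replicate 2 (adjusted p = 0.0502). Rbm4b (0.60 ± 0.13, 0.0127) lost it without iKO-labelled replicate 2 (0.0566) or replicate 3 (0.0541). The 2 that fell, named after their values were seen, were Mbnl3, a muscleblind protein, with 0, 6 and 2 counts in iKO-labelled libraries and 59, 61 and 58 counts in controls, and Rbm38 (-0.48 ± 0.12, 0.0266). The 8 calls of this list were 5 without iKO-labelled replicate 1 or control replicate 2, 4 without iKO-labelled replicate 2 and 3 without iKO-labelled replicate 3.

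Of 20 factors of nonsense-mediated decay, the route that removes poison-exon transcripts, 2 rose and 2 fell, and the share called, 20%, is near the 20.4% of all tested genes. The shares higher and lower, 10% each, stood beside 11.6% and 24.9% among abundant genes. Smg1, the kinase that phosphorylates Upf1, averaged 223 ± 4.37 CPM in iKO-labelled and 120.5 ± 9.96 CPM in control libraries (SD, n = 3 each), a log2 fold change of 0.89 ± 0.086 (edgeR, adjusted p = 0.000488). The termination factor Etf1 averaged 434 ± 24.8 CPM in iKO-labelled and 585 ± 26.7 CPM in control libraries, a log2 fold change of -0.43 ± 0.071 (adjusted p = 0.00482). Smg9, a partner of Smg1, had 0.60 ± 0.14 (0.0179) but was not called without iKO-labelled replicate 1 (0.0568), iKO-labelled replicate 3 (0.0701) or control replicate 2 (0.0521). Gspt1, the partner of Etf1, had -0.45 ± 0.12 (0.0355), and its call ended when any library but control replicate 1 was left out or with upper-quartile factors or library totals as scaling (leave-one-out adjusted p = 0.0680 to 0.121). The count of 4 was 2 without iKO-labelled replicate 1, iKO-labelled replicate 3 or control replicate 2.

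**Figure D5:**
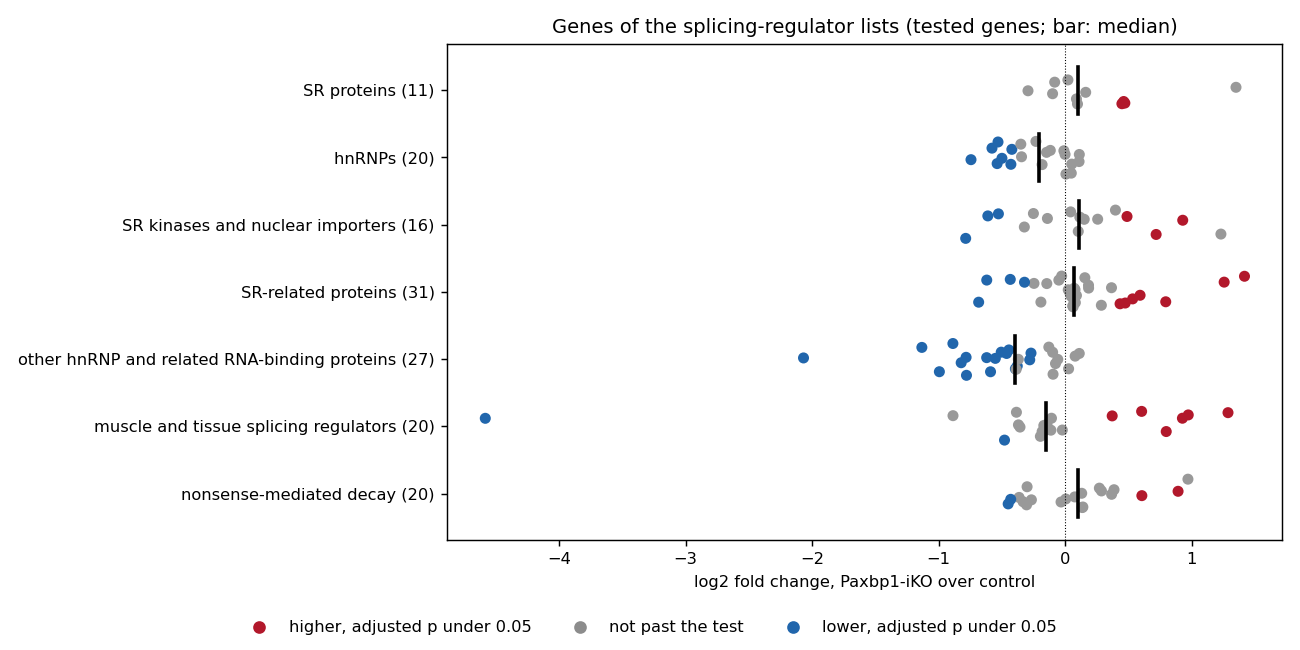
Log2 fold change (iKO-labelled over control, horizontal axis) of each tested gene of both families and the 5 lists, with the median of each as a bar; red points were called higher, blue ones lower and grey ones neither. The medians lie between -0.39 for other hnRNP-like proteins, where 17 of 27 points are blue, and 0.11 for the kinases and importers of SR proteins.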

How the data were processed

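Satellite cell RNA was reverse transcribed and amplified by Smart-Seq2, per the labels' protocols, a method primed on poly(A) that keeps no strand information. Trim Galore, STAR, featureCounts, Subread, DESeq2 and the build mm10 are named in the submitters' processing notes, without versions or roles. For the annotation release, strand setting and handling of multi-mapping reads, nothing is given in the sources used here. The authors deposited read counts per gene for the 6 libraries, with totals between 23327359 and 28050748, and FPKM values, which they had scaled by size factors (matched to 9.2e-15 over 11939 genes with at least 20 counts). The 551 rows without a gene name held 0.108% to 0.123% of counts and were left out.

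The deposited counts were passed through filterByExpr (at least 10 counts, total of at least 15), scaled by TMM, and tested with edgeR 4.0.16 (R 4.3.3) by the quasi-likelihood test with group as the only term. P-values were Benjamini-Hochberg adjusted over all 16252 tested genes at a threshold of 0.05. The standard error (SE) of a log2 fold change is its size over the square root of F, and CPM use TMM-scaled library sizes. The test was tested on simulated data. Alternatives used DESeq2 1.42.0, limma 3.58.1 (also on log2 of the authors' FPKM plus 1 or 0.1), other scalings and filters, a 1.5-fold null, the replicate number as a block, and each library left out.

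Proteins translated from GENCODE M21 coding sequences were aligned with biopython 1.88 (gap open 10, extend 0.5), and pseudogenes were found with BLAST+ 2.17.0. Promoters came from RefSeq. Figures used matplotlib 3.10.9. Full values are given for every called gene and the 5 highest by FPKM, Paxbp1, up to 4 genes per list by adjusted p and a few markers by level; exceptions are marked, and 1 gene that this takes in is not reported here, though it stays in the tests and counts. The genes and lists were chosen with earlier results of these data known.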

Additional observations from a re-analysis of the deposited data

How the results depend on the processing

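Over the 31 genes, 554 of 616 values under 20 alternatives kept direction and side of the threshold, 17 lost the call, 8 gained it and 37 changed sign. Over Paxbp1 and 20 genes of the lists, 391 of 420 held and 29 lost the call. Of the 10 called among the 31, all but Hnrnpab lost the call only under the test against a 1.5-fold change. Hnrnpa1, at 0.597-fold beyond that change, had adjusted p = 0.104 in it. Of the genes of the lists, Celf4, Rbm4b, Smg9 and Gspt1 also lost the call elsewhere (Gspt1 with upper-quartile factors, adjusted p = 0.0688, library totals, 0.118, and unfiltered FPKM, 0.138), and Rsrp1, Zranb2, Ptbp3, Rbm5 and Smg1 kept it throughout. The test against a 1.5-fold change left 0 of the 31 genes higher and 0 lower (0 SR proteins, 0 hnRNPs), 322 and 495 of all genes, 0 kinases and importers, 2 SR-related, 3 other hnRNP-like, 2 muscle and tissue regulators and 1 decay factor. Among the alternatives on all genes, DESeq2 called 2081 higher. Replicate numbers did not pair the libraries (same-number deviations correlated at -0.067, -0.0021 and -0.059). With the number as a replicate block, 813 of all genes were higher, 7 SR-related genes were called, and 3 of the 31 rose and 6 fell, Hnrnpab being the one lost (adjusted p = 0.0715). On unfiltered FPKM, 5 muscle and tissue regulators were called. The median of the 31, -0.084, was -0.0057 with upper-quartile factors, 0.048 with library totals and -0.023 with the stricter filter. Library totals shifted the median of all genes by 0.13, and 57.2% of calls were then higher, against 39.9% with TMM and 49.6% with upper-quartile factors. Without 1 library, genes called higher ranged from 706 to 1159 of all, SR-related calls from 7 to 12, muscle and tissue regulators from 3 to 7 and decay factors from 2 to 4. Calls of other hnRNP-like proteins then ranged from 12 to 17 and those of kinases and importers from 4 to 6. Signs turned only for uncalled genes. Hnrnpa2b1 (-0.0021) was 0.015 with DESeq2, 6.2e-05 with limma-voom, 0.020 with RLE, 0.076 with upper-quartile factors, 0.13 with library totals, 0.012 without a filter, 0.068 with the stricter filter, 0.0142 on each filtered or unfiltered log2(FPKM + 1) and on log2(FPKM + 0.1), and -0.013 to 0.018 without 1 library. Hnrnpdl (-0.012) was 0.0044 with DESeq2, 0.0096 with RLE, 0.067 with upper-quartile factors, 0.12 with library totals, 9.7e-04 without a filter, 0.058 with the stricter filter, 0.0053 on log2(FPKM + 1), 0.0054 on log2(FPKM + 0.1), and -0.051 to 0.047 without 1 library. Library totals gave Hnrnpul1 0.014, Srsf6 0.048 and Srsf9 0.031. Without 1 library the ranges were -0.043 to 0.074 for Hnrnph1, -0.042 to 0.18 for Hnrnph3, -0.0079 to 0.20 for Hnrnpll, -0.0072 to 0.10 for Hnrnpu, -0.084 to 0.32 for Hnrnpul2, -0.051 to 0.099 for Srsf11 and -0.21 to 0.040 for Srsf9. The cause was not tested for any of these. Hnrnpk has no value without the 50 most abundant genes, being one of them.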
